A study of Mus musculus with 12 samples.

Results

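The genes described here are 10 immediate early transcription factors of the AP-1 and EGR families, Fos, Fosb, Fosl1, Fosl2, Jun, Junb, Jund, Egr1, Egr2 and Egr3. They were chosen by name from the 56748 genes of the deposited table, with no measured value in the rule, and each symbol matched 1 identifier. All 10 had enough counts to be among the 16465 genes tested.

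RNA was sequenced from 12 libraries of C3H/10T1/2 cells, an established wild-type mouse mesenchymal line that the sample records spell CH310T1/2, so the libraries are dishes of 1 line and not different animals. Cells of every group spent 1 h in suspension before 18 h on 12 kPa hydrogels carrying type I collagen at 0.05 mg/ml. The sources differ on serum, an inducer of these genes: the sample records place 0.5% serum in the suspension step, while the study's methods describe a serum-free suspension and plating in 0.5% serum. The 3 groups, with 4 libraries each, are collagen alone (col1), collagen polymerized with 30 nM recombinant aortic carboxypeptidase-like protein (col1-ACLP, "M-ACLP" in the records), and the same ACLP matrix with SB431542, an inhibitor of the TGFβ receptor kinase ALK5 (col1-ACLP+SB). Collagen alone with SB431542 is not among the groups, so what the inhibitor does without ACLP cannot be told apart from what it does with ACLP.

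Libraries held 29246154 to 52201922 counts, and replicates of a group differed by more than counting noise (chi-square per degree of freedom 7.22 to 19.5). All 8 mesenchymal markers were detected. Their summed levels in CPM (counts scaled to a common library total) were 25430 to 26350 on col1 and 35200 to 43440 on col1-ACLP. On col1-ACLP+SB they were 32150 to 37650 CPM. Of 3 markers each of other cell types, the summed levels were 2.34 to 4.71 CPM for epithelial cells (Epcam at 0), 5.32 to 10.04 CPM for immune cells (nearly all Cd68, with Ptprc at most 0.182 CPM), at most 0.399 CPM for endothelial cells, at most 0.269 CPM for adipocytes and at most 2.09 CPM for skeletal muscle (Acta1 alone, with Myod1 and Myog at 0). On col1-ACLP against col1, Cd68 was lower (log2 fold change -0.49, adjusted p = 0.0284 by edgeR) and Acta1 higher (2.18, adjusted p = 0.0229). Of the 8 mesenchymal markers, 2 were higher and 4 lower at an adjusted p under 0.05 by edgeR (9.52% and 8.41% of all tested genes). Col1a1 (0.82) and Col1a2 (0.65) were higher, and Pdgfra (-0.76), Twist1 (-0.43), Prrx1 (-0.16) and Pdgfrb (-0.15) lower. The part of these markers in the results was not tested. Mitochondrial genes took 2.39 to 2.98% of counts on col1, 2.00 to 2.21% on col1-ACLP and 2.101 to 2.876% on col1-ACLP+SB. Fewest genes had a count in col1 replicate 2 (18556) and then in col1-ACLP+SB replicate 2 (20037), against 20691 to 21332 in the other 10 libraries. Summed heat-shock genes, a sign of stress during handling, ran from 107.9 to 127.6 CPM with overlapping groups.

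AP-1 is a dimer. FOS-family proteins pair with JUN-family proteins through a leucine zipper, JUN proteins can also pair with each other, and the dimers bind the TRE, a short palindrome in gene control regions, or the related cyclic AMP response element (CRE). EGR proteins bind GC-rich sites through zinc fingers. Fos, Fosb, Jun, Junb and the Egr genes are classic immediate early genes: serum, growth factors, adhesion and stretch induce them within minutes without new protein synthesis, through serum response factor and its ERK-phosphorylated partners at the CArG box and through CREB at CRE sites, and their mRNAs decay quickly. Fosl1 and Fosl2 encode FOS relatives that last longer after a stimulus, and Jund is made more steadily than the other Jun genes. In fibroblasts these factors act on genes of matrix turnover, wound repair and growth.

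Promoter sequence upstream of the start site is shown for Fos, Fosb, Junb and Egr2, because these 4 hold letters of the sites through which immediate early genes are known to be induced. RefSeq windows on GRCm38.p6, from 250 bases before to 50 after each start, were held for 7 of the 10 genes (11 windows, 5 of them for Egr2). Fosl1, Egr1 and Egr3 had none. Capitals in Fos and Junb mark TGACG, the core of the CRE. In Fosb they mark TGACG and then the EGR site GCGNGGGCG, and in Egr2 they mark TGACG on each strand with the CArG box between them. The Fos sequence is chr12:85473640-85473889 on the plus strand, that of Fosb chr7:19310046-19310295 on the minus strand, that of Junb chr8:84978749-84978998 on the minus strand and that of Egr2, for the start numbered 3, chr10:67537619-67537868 on the plus strand.
Fos: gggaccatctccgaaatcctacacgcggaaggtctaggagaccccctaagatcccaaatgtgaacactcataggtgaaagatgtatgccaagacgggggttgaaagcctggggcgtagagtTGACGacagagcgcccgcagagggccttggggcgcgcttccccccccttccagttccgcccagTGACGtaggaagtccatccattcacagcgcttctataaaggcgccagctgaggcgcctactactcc
Fosb: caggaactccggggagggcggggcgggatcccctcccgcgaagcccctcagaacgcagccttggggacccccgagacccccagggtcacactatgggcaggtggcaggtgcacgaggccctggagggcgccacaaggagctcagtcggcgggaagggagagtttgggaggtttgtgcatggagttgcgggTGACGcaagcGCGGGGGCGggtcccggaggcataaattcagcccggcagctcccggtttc
Junb: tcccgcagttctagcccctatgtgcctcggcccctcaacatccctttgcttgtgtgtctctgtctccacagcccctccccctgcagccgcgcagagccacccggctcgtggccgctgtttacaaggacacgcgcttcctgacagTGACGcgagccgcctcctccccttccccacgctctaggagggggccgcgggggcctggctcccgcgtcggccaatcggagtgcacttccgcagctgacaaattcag
Egr2: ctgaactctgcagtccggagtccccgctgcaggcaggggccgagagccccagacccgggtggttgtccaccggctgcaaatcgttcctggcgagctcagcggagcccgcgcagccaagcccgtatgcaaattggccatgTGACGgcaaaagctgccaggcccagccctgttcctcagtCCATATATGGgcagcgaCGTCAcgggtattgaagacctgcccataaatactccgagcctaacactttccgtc

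Both strands were searched, over all 32851 RefSeq windows. TGACG was present in windows of 4 genes (Fos at -129 and -66 from the start, Fosb at -60, Junb at -106 and Egr2 at -111 and -55 in the window shown), and 20.8% of all windows hold it. A CArG box was found in 4 of the 5 Egr2 windows, at -72 in the window shown, against 1.63% of all windows. None of the other members with a window held one, and Fosl1, Egr1 and Egr3 could not be searched. Some of those windows overlap, and the 4 hold 2 distinct boxes. The EGR site was found in Fosb at -50 and in Fosl2 at -79, against 5.55% of windows. The whole CRE TGACGTCA, which contains the core, was in no member window (1.79% of all), nor was the TRE TGANTCA (7.81%) or the ETS site CCGGAAG (8.86%). These are matches of letters in short windows, not measured binding.

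Members differed widely in level. Per gene length, as FPKM (counts scaled by gene length and library total), Junb was highest on col1 at 214 ± 40.4 (mean ± SD, n = 4), and Egr1 followed at 201 ± 26.8 with overlapping libraries. Fos lay at 144 ± 20.7 and Jun at 114 ± 16.9, again overlapping each other. Then came Jund at 50.6 ± 4.53, Fosl2 at 23.6 ± 0.847, Fosb at 15.5 ± 3.89, Egr2 at 13.0 ± 2.14 and Egr3 at 11.1 ± 1.16, of which Fosb, Egr2 and Egr3 overlapped their neighbours. Fosl1 was lowest, at 1.49 ± 0.171 FPKM. The order was the same in the other groups.

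**Figure D1:**
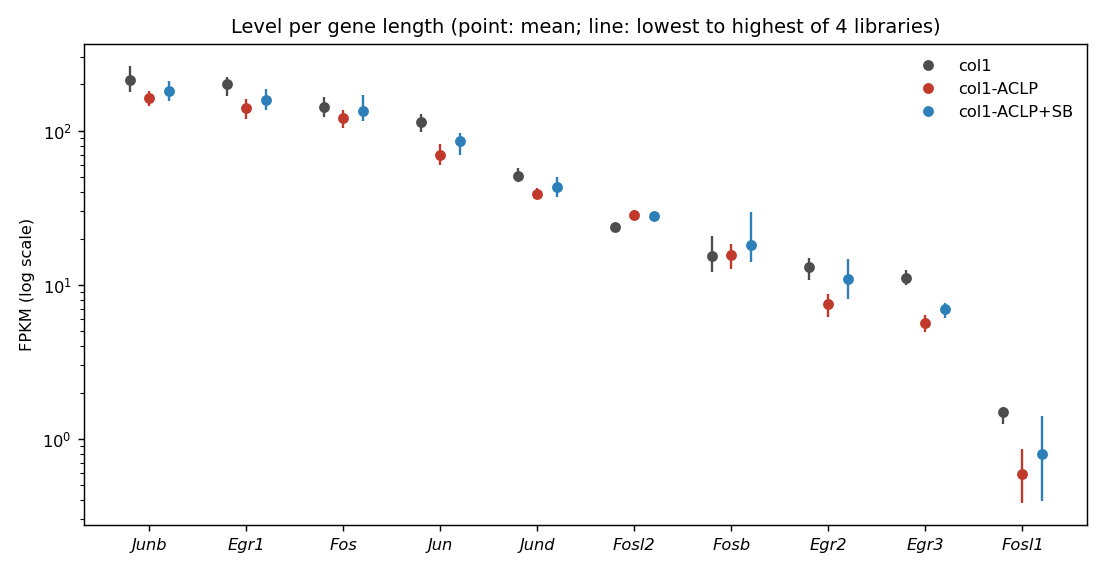
Level per gene length (FPKM, log axis) of the 10 genes, ordered by their mean on col1, with points at the mean and lines from the lowest to the highest of 4 libraries of each group. Junb, Egr1, Fos and Jun stand highest and Fosl1 lowest in each group. The col1 lines of Fosl1, Jun, Jund, Egr1, Egr2 and Egr3 lie wholly above those of col1-ACLP, and that of Fosl2 lies wholly below.

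Each family was carried mostly by 1 gene. Egr1 made up 89.3 ± 0.306% of the summed EGR level per length on col1 and 91.4 ± 0.494% on col1-ACLP. Fos made up 77.8 ± 1.14% of the FOS family on col1 and 72.9 ± 1.26% on col1-ACLP, and Fosl2 13.0 ± 1.80% and 17.3 ± 1.81%. In the JUN family, Junb held 56.4 ± 1.81% on col1 and 59.8 ± 0.713% on col1-ACLP, and Jun 30.1 ± 1.52% and 25.7 ± 1.39%. The shares of Fos and of Jun in their families did not overlap between the libraries of these groups (lowest 76.2% on col1 and highest 74.6% on col1-ACLP for Fos; 28.35% and 27.68% for Jun). Nor did those of Fosl1, Fosl2, Egr1, Egr2 and Egr3, while those of Fosb, Junb and Jund overlapped. Such shares were not computed for other genes.

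**Figure D2:**
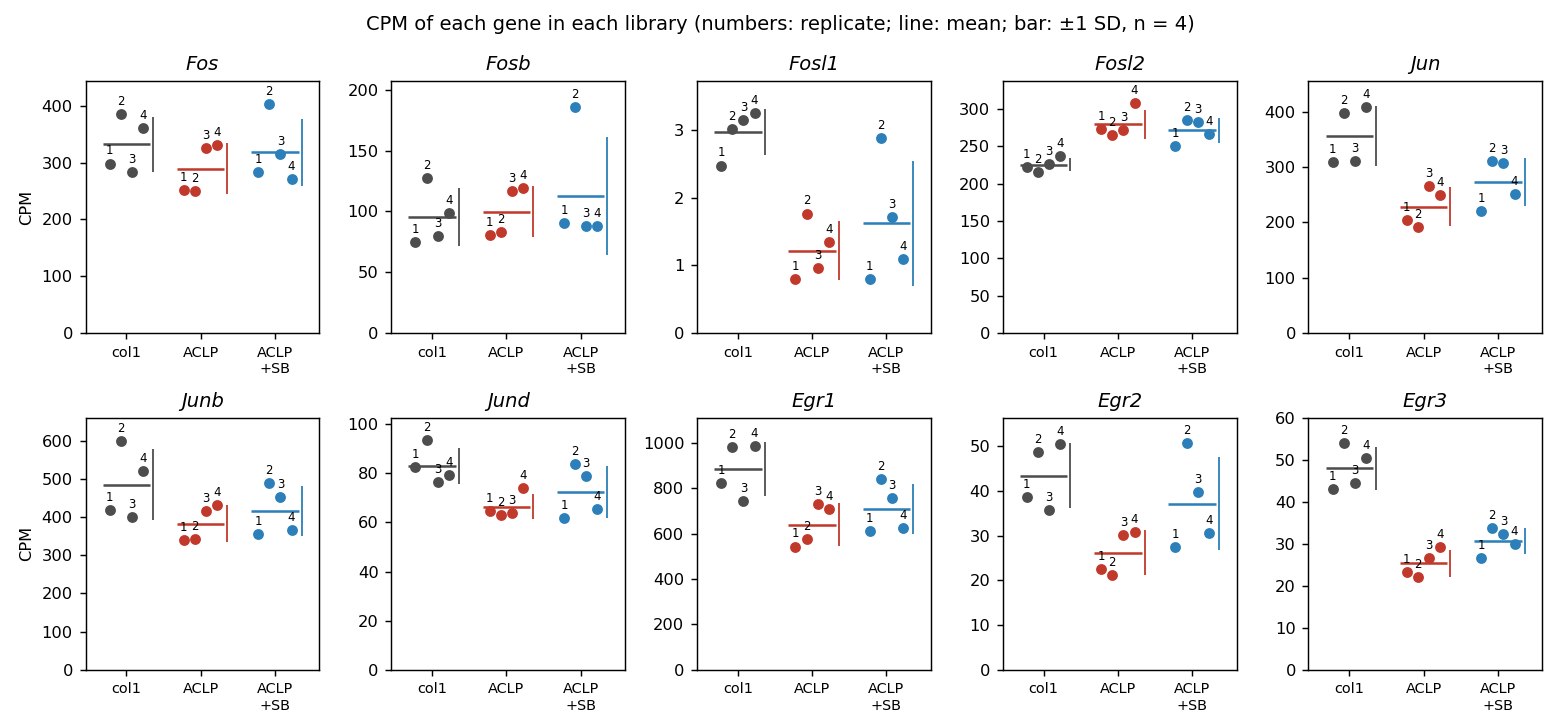
CPM of each gene in each of the 12 libraries, 1 panel per gene with its own linear axis from 0, points numbered by replicate, lines at the group mean and bars of 1 SD. The 4 col1-ACLP libraries of Fosl1, Jun, Jund, Egr1, Egr2 and Egr3 lie below the 4 col1 libraries, those of Fosl2 lie above, and those of Fos, Fosb and Junb overlap.

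The comparison of col1-ACLP with col1 asks what matrix-bound ACLP adds to collagen. JUN and EGR genes were lower with ACLP, Fosl1 was lower and Fosl2 was higher, while Fos and Fosb did not pass the test. A gene was called when edgeR's quasi-likelihood test gave a Benjamini-Hochberg adjusted p under 0.05 over all genes tested and the log2 fold change exceeded 0.58 in size. By that rule 4 of the 10 members were lower (Fosl1, Jun, Egr2 and Egr3), where 2.36% of all tested genes were, and 0 were higher, where 2.61% were. By adjusted p alone 7 were lower (8.41% of all genes), with Junb, Jund and Egr1 added, and 1 was higher, Fosl2 (9.52% of all genes). The 4 libraries of each group were wholly separate for 6 members lower with ACLP (10.3% of all genes) and 1 higher (10.9%). The median log2 fold change was -0.41 over the 10 members and -0.0099 over all tested genes. The mitochondrial share was also lower with ACLP, without overlap between these groups, and its part in these results was not tested. In bulk RNA, fewer cells with a transcript and less of it per cell cannot be told apart. Without both col1 replicate 2 and col1-ACLP+SB replicate 2, 4 members were again called lower.

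**Figure D3:**
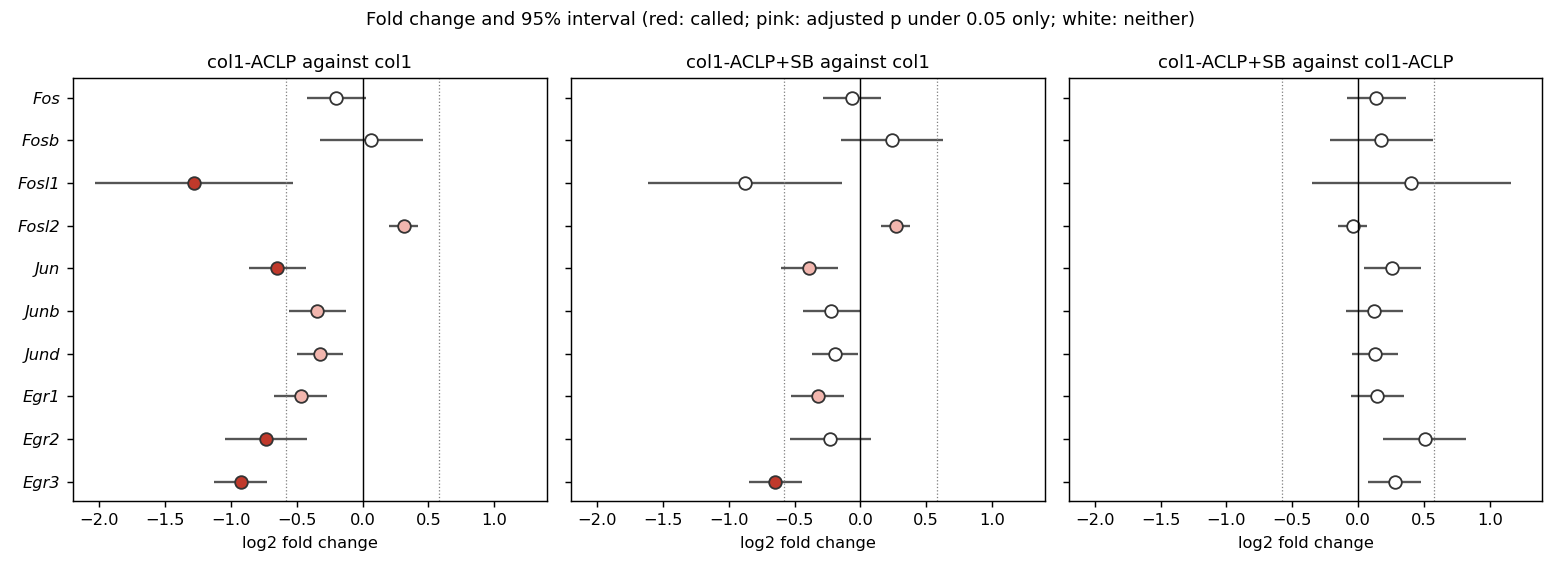
Log2 fold change of each gene in the 3 comparisons with its 95% interval, dotted lines at 0.58 either side of 0, red where called, pink where only the adjusted p passed and white where neither did. Against col1, col1-ACLP has 4 red points, all below 0, col1-ACLP+SB has 1 (Egr3), and col1-ACLP+SB against col1-ACLP has none.

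Among the EGR genes, Egr3 (ENSMUSG00000033730, chr14:70314652-70320063 of GRCm39, as the other positions of genes here), a factor of muscle spindle and immune cell development, had the smallest relative error. Its col1 libraries held 43.0, 54.0, 44.5 and 50.3 CPM for replicates 1 to 4, its col1-ACLP libraries 23.3, 22.0, 26.7 and 29.3 CPM, and its col1-ACLP+SB libraries 26.5, 33.8, 32.4 and 30.0 CPM. All 8 libraries with ACLP were below all 4 col1 libraries. On the ACLP matrix Egr3 fell by 47.3% (log2 fold change -0.92, standard error 0.0974, adjusted p = 7.21e-08 by edgeR), and it was the only member still called when edgeR's glmTreat tested the change against 0.58 itself.

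Egr2 (ENSMUSG00000037868, chr10:67371305-67378018), known for its part in hindbrain and Schwann cell development, had 38.7, 48.9, 35.8 and 50.5 CPM on col1, 22.6, 21.2, 30.2 and 30.9 CPM with ACLP, and 27.5, 50.7, 39.8 and 30.7 CPM with ACLP and SB431542. The col1-ACLP libraries all lay below the col1 libraries, and the col1-ACLP+SB libraries spread over both. Its level fell by 39.8% on col1-ACLP (log2 fold change -0.73, standard error 0.151, adjusted p = 8.57e-04 by edgeR).

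Egr1 (ENSMUSG00000038418, chr18:34992876-34998037), the most abundant EGR factor, had 824, 984, 745 and 988 CPM on col1, 543, 576, 733 and 707 CPM with ACLP, and 611, 839, 756 and 624 CPM with ACLP and SB431542. The highest col1-ACLP library lay just under the lowest col1 library. Its fall was smaller than the size threshold, at -0.47 on the log2 scale (standard error 0.098, adjusted p = 9.8e-04 by edgeR), or 27.7%.

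Of the JUN genes, Jun (ENSMUSG00000052684, chr4:94937271-94940459), the strongest activator of the family, had 309, 399, 312 and 409 CPM on col1, 205, 192, 267 and 249.3 CPM with ACLP, and 221, 312, 307 and 252 CPM with ACLP and SB431542. Its level fell by 36.1% on col1-ACLP (log2 fold change -0.65, standard error 0.106, adjusted p = 5.9e-05 by edgeR), and the groups did not overlap. The size fell short of 0.58 without col1 replicate 4 (-0.573) and without col1-ACLP replicate 2 (-0.576), each with an adjusted p under 0.001. The noncoding Junos, on the opposite strand of Jun, had 39 to 163 counts against 6696 to 17583 for Jun, and the strand setting of the counting is not given in the sources used here.

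Junb (ENSMUSG00000052837, chr8:85701113-85705347), a JUN protein that also restrains the others, had 419, 598, 401 and 522 CPM on col1, 340.1, 343, 415 and 432 CPM with ACLP, and 357, 490.2, 451 and 367 CPM with ACLP and SB431542. The groups overlapped, and the log2 fold change of -0.34 (standard error 0.106) had an adjusted p of 0.0241 by edgeR. DESeq2 gave 0.126, and leaving out col1 replicate 2 or 4, or col1-ACLP replicate 1 or 2, gave 0.0816 to 0.141. Jund (ENSMUSG00000071076, chr8:71151599-71153265) had 82.5, 93.4, 76.3 and 79.5 CPM on col1, 64.8, 62.9, 63.8 and 74.0 CPM with ACLP, and 61.7, 83.9, 79.0 and 65.6 CPM with ACLP and SB431542. It was lower on col1-ACLP, by -0.32 on the log2 scale (standard error 0.0843, adjusted p = 0.00743 by edgeR). The Junb locus overlaps Prdx2 on the opposite strand, with 4131 to 8446 counts for Prdx2 and 11082 to 23389 for Junb, so a share of the reads may be split between them.

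The FOS family divided. Fos itself (ENSMUSG00000021250, chr12:85520664-85524047), the founding member, had 298, 386, 284 and 360.5 CPM on col1, 251.1, 249.3, 325.8 and 330.8 CPM with ACLP, and 284, 403, 315 and 271 CPM with ACLP and SB431542. The groups overlapped, and the log2 fold change of col1-ACLP over col1 was -0.20 with a 95% interval from -0.42 to 0.023 (adjusted p = 0.236 by edgeR, and 0.00375 with no filter on low counts). Fosb (ENSMUSG00000003545, chr7:19036621-19043976), the closest relative of Fos, had 74.7, 128, 79.6 and 99.1 CPM on col1, 80.5, 83.0, 117 and 120 CPM with ACLP, and 90.3, 186, 88.0 and 88.0 CPM with ACLP and SB431542. Its difference was 0.067, with an interval from -0.32 to 0.46 (adjusted p = 0.876 by edgeR), an interval that lies inside the size threshold on either side.

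Fosl2 (ENSMUSG00000029135, chr5:32293145-32315186), which encodes a FOS relative tied to bone and to fibrosis in the skin and lung, was the steadiest member and moved the other way. Its col1 libraries held 223, 216, 226 and 236 CPM, its col1-ACLP libraries 273, 266, 272 and 308 CPM, and its col1-ACLP+SB libraries 250.02, 286, 283 and 267 CPM. All 8 libraries with ACLP were above all 4 on col1. The rise of 24.1% (log2 fold change 0.31, standard error 0.0537, adjusted p = 1.12e-04 by edgeR) was below the size threshold and kept an adjusted p under 0.05 in all 21 alternatives run.

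Fosl1 (ENSMUSG00000024912, chr19:5497575-5505974), known in migrating and transformed cells, rested on few reads. Its counts were 95, 114, 104 and 140 on col1, 26, 64, 29 and 38 on col1-ACLP, and 28, 86, 89 and 33 on col1-ACLP+SB. As CPM the highest col1-ACLP library (1.77) lay below the lowest col1 library (2.48). The log2 fold change was -1.28 (standard error 0.364, adjusted p = 0.0136 by edgeR), with an interval from -2.03 to -0.53, and the adjusted p was 0.0535 without col1-ACLP replicate 1. Its locus overlaps Ccdc85b on the opposite strand, which had 767 to 1564 counts.

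The comparison of col1-ACLP+SB with col1 asks which differences remained when ALK5 was inhibited on the ACLP matrix. It uses the same col1 libraries as the comparison above, so the 2 are not independent. Egr3 was the only member called, lower by 36.1% (log2 fold change -0.65, standard error 0.0961, adjusted p = 3.09e-05 by edgeR), where 1.01% of all tested genes were called lower. No member was called higher (1.27% of all genes), and by adjusted p alone the only higher member was Fosl2 (4.6%), at 0.27 (standard error 0.0537, adjusted p = 0.00112). By adjusted p alone Jun at -0.39 (adjusted p = 0.0185) and Egr1 at -0.32 (adjusted p = 0.0358) were lower too, making 3 of the 10 with Egr3 (4.54% of all genes). Groups did not overlap for Egr3, among the lower (6.32% of all genes), or for Fosl2, among the higher (6.7%).

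The differences of Jun and Egr1 were less firm than those of Egr3 and Fosl2. Both lost the adjusted p with DESeq2 (0.0977 and 0.159) and without col1 replicate 2, col1 replicate 4, col1-ACLP+SB replicate 1 or col1-ACLP+SB replicate 4 (0.066 to 0.0967 for Jun and 0.128 to 0.15 for Egr1). Without col1-ACLP+SB replicate 2, the highest of its group in all 10 genes, Fosl1 was called lower as well (log2 fold change -1.29, adjusted p = 0.0225), against -0.88 (adjusted p = 0.146) with all libraries. Junb at -0.22, Jund at -0.19 and Egr2 at -0.23 had adjusted p-values of 0.243, 0.186 and 0.439, Fosb at 0.24 had 0.541, and Fos lay at -0.063 with an interval from -0.29 to 0.16.

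The comparison of col1-ACLP+SB with col1-ACLP measures the change with the inhibitor on the same matrix. No member passed, and few genes did at all: 0.0425% of all tested genes were called lower and 0.085% higher, and 0.905% and 0.571% by adjusted p alone. At an unadjusted p under 0.05 by edgeR, 3 members were higher with SB431542, where 6.19% of all tested genes were, and 0 were lower (6.63%): Egr2 at 0.50 on the log2 scale (95% interval 0.19 to 0.82, adjusted p = 0.103), Egr3 at 0.28 (0.077 to 0.48, adjusted p = 0.181) and Jun at 0.26 (0.041 to 0.48, adjusted p = 0.269). DESeq2 and limma-voom also called none of the 10. With no filter on low counts, Egr2 and Jun passed by adjusted p alone (1.27e-06 and 4.91e-04 by edgeR), at log2 fold changes of 0.50 and 0.25. Egr2 was called higher without col1-ACLP+SB replicate 1 (0.62, adjusted p = 0.0393) and lay at 0.32 (adjusted p = 0.394) without col1-ACLP+SB replicate 2. For Egr1 the difference was 0.15 (-0.057 to 0.35), for Fos 0.14 (-0.086 to 0.36), and for Fosl2 -0.042 (-0.15 to 0.068), which places any change of Fosl2 with the inhibitor well inside the size threshold.

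Within each group, the members were high or low together from dish to dish. On col1, 9 of the 10 genes were above their group mean in replicates 2 and 4 each, against 0 in replicate 1 and 2 in replicate 3. On col1-ACLP, 7 and 10 were above it in replicates 3 and 4, against 0 and 1 in replicates 1 and 2. On col1-ACLP+SB, 10 and 9 were above it in replicates 2 and 3, against 0 in both of the others. The median deviation of the members ran from -0.216 to 0.254 on the log2 scale. That of all tested genes (-0.0039 to 0.011) is held near 0 by the scaling, so it is no yardstick for the members. Over all tested genes the SD of the deviations was 0.369 to 0.592 per library. The spread between libraries of 1 group was of the order of the smaller differences between groups, such as that of Fos.

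**Figure D4:**
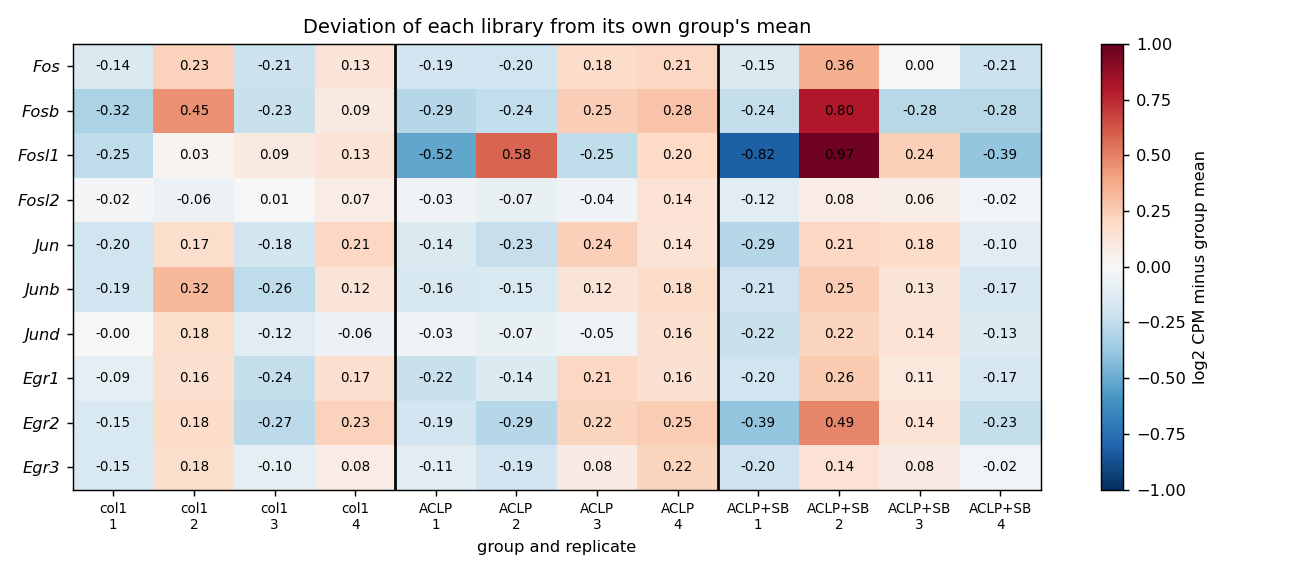
Deviation of each library's log2 CPM (prior count 2) from its own group's mean, with 1 row per gene and 1 column per library, red above the mean and blue below. Most genes of a column share its colour, and the largest deviations are those of Fosl1 in col1-ACLP+SB replicates 2 (0.97) and 1 (-0.82) and of Fosb in replicate 2 (0.80).

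Relative to Fos in the same library, the spread within groups was smaller for Fosb, Fosl1, Jun, Junb, Egr1, Egr2 and Egr3, equal for Jund and larger for Fosl2. The SD within groups of Egr1 was 0.212 on the log2 scale and that of its log2 ratio to Fos 0.069, and for Jun they were 0.228 and 0.112. The log2 ratio of Egr1 to Fos was 1.42 ± 0.054 (SD, n = 4; 1.35 to 1.46) on col1, 1.15 ± 0.052 (1.10 to 1.21) on col1-ACLP and 1.16 ± 0.093 (1.06 to 1.26) on col1-ACLP+SB. That of Jun to Fos was 0.10 ± 0.066, -0.34 ± 0.059 and -0.22 ± 0.17. That of Egr3 to Fos was -2.79 ± 0.078, -3.51 ± 0.076 and -3.36 ± 0.18. For Egr1, Jun, Egr3 and Fosl1 no library with ACLP reached the lowest ratio on col1. For Egr2 and Junb this held on col1-ACLP only. Their highest ratio on col1-ACLP+SB (-2.983 and 0.5199) passed the lowest on col1 (-2.987 and 0.4898). Ratios of Fosb and Fosl2 were higher on average with ACLP. Ratios to Fos were not computed for all genes. These ratios are CPM ratios, so they compare groups and not the amounts of different mRNAs. The spread of Fosl2 was 0.202 as a ratio and 0.0819 alone. The ratios of Jund, whose CPM did not overlap between col1 and col1-ACLP, did overlap (-2.18 to -1.85 and -2.35 to -1.95).

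Over the 12 libraries, Pearson's r was 0.861 between Fos and Egr1 (Spearman's rho 0.839), 0.921 between Fos and Junb (0.930) and 0.967 between Jun and Egr1 (0.944). Leaving out the 2 libraries farthest from the median of the first gene gave 0.856, 0.933 and 0.956. With group means removed they were 0.956, 0.942 and 0.941. Not all pairs were close: Fosb had r = 0.823 to Fos but 0.45 to Egr1, 0.334 to Jun, 0.236 to Fosl1 and 0.137 to Egr3. For Fosl2 the values ran from -0.713 (Egr3) to 0.319 (Fosb), with -0.0638 to Fos (rho 0.0699). Once group means were removed, these pairs of Fosb with Egr1, Jun, Fosl1 and Egr3 had 0.819, 0.727, 0.555 and 0.77, and Fosl2 had 0.522 with Fos, 0.68 with Egr3 and 0.394 with Fosb. These values describe 12 libraries that share their groups and sequencing, and they carry no test.

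Outside the 10, the genes most like Fos by r over the 12 libraries were Dusp1, a phosphatase that switches off MAP kinases (0.968), Zfp36, which destabilizes short-lived mRNAs (0.920), the antiproliferative gene Btg2 (0.902), the immediate early gene Ier2 (0.900) and Ppp1r15a, a phosphatase subunit of the stress response (0.894). Those most like Egr1 were Btg2 (0.973), Zfp36 (0.961), the nuclear receptor gene Nr4a1 (0.957), Nfkbiz, which encodes an atypical inhibitor of κB (0.957), and Zfp36l1, a relative of Zfp36 (0.955). Of these 8 genes, 5 are on the list of other immediate early genes. Among the 10 themselves, the ranks of likeness to Fos among 16464 genes ran from 2 (Junb) to 92 (Jund), with Egr3 at 421, Fosl1 at 656 and Fosl2 at 8924 beyond them. Those of likeness to Egr1 ran from 2 (Jun) to 38 (Fos), with Fosl1 at 153, Fosb at 2469 and Fosl2 at 13833 beyond them.

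The other immediate early genes, a list of 34 of which 33 were tested, were mixed on col1-ACLP against col1, with 4 called lower (2.36% of all genes were) and none higher (2.61%). By adjusted p alone 11 were lower and 4 higher (8.41% and 9.52% of all genes), and the median log2 fold change was -0.167, against -0.0099 over all genes. The called genes were Nr4a3 (2.69 ± 0.400 and 1.05 ± 0.376 CPM, log2 fold change -1.35), its relative Nr4a1 (543 ± 62.3 and 318 ± 61.4 CPM, -0.77), Phlda1 (50.2 ± 8.72 and 31.0 ± 2.81 CPM, -0.70) and Btg2 (105 ± 24.0 and 69.7 ± 15.8 CPM, -0.59), with adjusted p-values of 0.00604, 1.88e-04, 5.01e-06 and 0.00728 by edgeR. On col1-ACLP+SB against col1 none was called, 4 were lower and 3 higher by adjusted p alone (4.54% and 4.6% of all genes), and the median was -0.0492, against 0.0046 over all genes. None passed between col1-ACLP+SB and col1-ACLP. Well-known members such as Myc (0.067) and Klf4 (0.0088) had adjusted p-values of 0.659 and 0.959 on col1-ACLP against col1, and those higher by adjusted p alone were Gadd45b (0.49), Plk2 (0.49), Rhob (0.35) and Ccn1 (0.28).

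**Figure D5:**
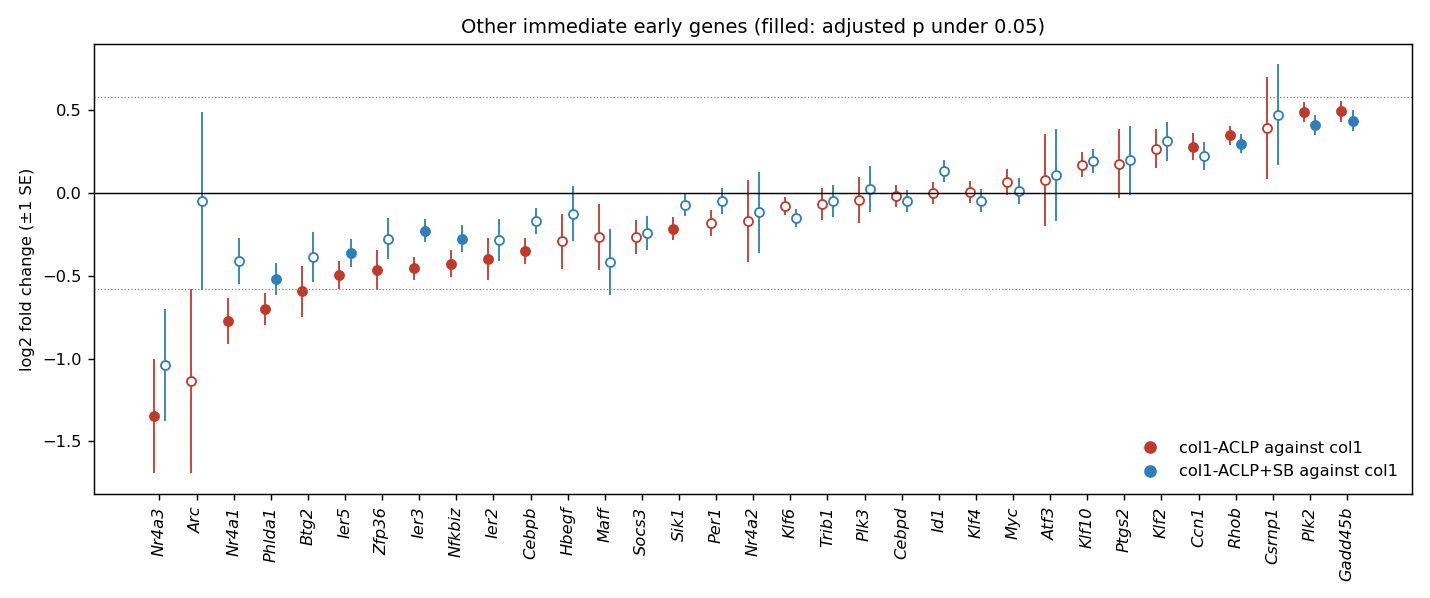
Log2 fold change against col1 (point, with 1 standard error either side) of 33 other immediate early genes, ordered by their value on col1-ACLP, for col1-ACLP in red and col1-ACLP+SB in blue, filled where the adjusted p was under 0.05. Nr4a3, Nr4a1, Phlda1 and Btg2 have filled red points beyond the dotted line at -0.58, and Plk2 and Gadd45b have the highest filled points, short of 0.58.

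Components of the kinase routes that induce these genes were measured as mRNA only. Of 21 genes of the ERK route and its serum response factor partners, 1 was called on col1-ACLP against col1, Rps6ka2, a kinase downstream of ERK (12.4 ± 1.65 and 20.5 ± 2.36 CPM, log2 fold change 0.73, adjusted p = 9.49e-05 by edgeR), where 2.61% of all genes were called higher and 2.36% lower. By adjusted p alone 9 were higher (9.52% of all genes were), among them the ERK kinase gene Map2k1 (0.45, adjusted p = 6.6e-07) and Hras (0.42, adjusted p = 0.00185), and 1 was lower (8.41%), the ERK gene Mapk3 (-0.16, adjusted p = 0.0172). The list's median was 0.115 and that of all genes -0.0099. Of 11 tested JNK and p38 genes, Map3k1, an upstream kinase of JNK, was called lower (7.62 ± 2.25 and 4.54 ± 0.516 CPM, -0.75, adjusted p = 0.00529), where 2.36% of all genes were, and no gene of that list was called without col1 replicate 1. By adjusted p alone 2 were lower (8.41% of all genes), Map3k1 and Map2k3 (-0.26, adjusted p = 0.00231). On col1-ACLP+SB against col1 no gene of either list was called, with 2 of the ERK list higher by adjusted p alone (4.6% of all genes).

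Among 12 tested bZIP partners of AP-1, Atf5, a factor of the amino acid response, was called higher on col1-ACLP (315 ± 18.9 and 505 ± 50.4 CPM, log2 fold change 0.68, adjusted p = 2e-08 by edgeR), 1 of 12 where 2.61% of all genes were. Maf was called lower there (4.93 ± 0.384 and 2.17 ± 0.225 CPM, -1.18, adjusted p = 7.54e-04; 2.36% of all genes) and on col1-ACLP+SB (2.58 ± 0.859 CPM, -0.93, adjusted p = 0.0106; 1.01%). Of 3 tested EGR partners, Egr4, the remaining family member, was called lower on col1-ACLP at a very low level (0.810 ± 0.341 and 0.2519 ± 0.1302 CPM, -1.68, adjusted p = 0.0448), beside the same 2.36% of all genes, a call that was lost in most of the alternatives run.

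Genes known as targets of these factors were called in both directions. Of 18 tested AP-1 targets, 1 was called higher and 4 lower on col1-ACLP against col1, where 2.61% and 2.36% of all genes were, with a median of -0.105 against -0.0099 over all genes. The chemokine gene Ccl2 fell from 95.4 ± 4.63 to 42.0 ± 5.22 CPM (log2 fold change -1.18, adjusted p = 2.28e-09 by edgeR), and the chromatin protein gene Hmga1 (-0.96), the matrix protein gene Spp1 (-0.76) and the urokinase gene Plau (-0.69) were lower too. On col1-ACLP+SB against col1, 1 target was called higher (1.27% of all genes), and Ccl2 (-0.85) and Plau (-0.66) were called lower (1.01%). By adjusted p alone 4 were lower there (4.54% of all genes). The added genes fell short of the size threshold: Spp1 (-0.578, adjusted p = 1.74e-04 by edgeR) and Hmga1 (-0.549, adjusted p = 0.0193).

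Of 15 tested EGR targets, 3 were called higher and 1 lower on col1-ACLP against col1, beside the same 2.61% and 2.36% of all genes, with a median of -0.0408. The higher genes were Thbs1, a matricellular protein gene (1021 ± 38.8 and 2117 ± 184 CPM, 1.05), the growth factor gene Pdgfb (27.7 ± 3.35 and 50.8 ± 5.72 CPM, 0.87) and the collagen gene Col1a2 (0.65), and the lower gene was Sphk1, a sphingosine kinase (41.0 ± 3.55 and 25.6 ± 3.27 CPM, -0.68). The adjusted p-values by edgeR were 1.91e-13, 4.59e-08, 9.79e-12 and 2.5e-06. On col1-ACLP+SB against col1, Thbs1 (0.81) and Pdgfb (0.72) were called higher (1.27% of all genes) and none lower (1.01%). By adjusted p alone 4 were higher (4.6% of all genes) and 2 lower (4.54%). Among them were Col1a2 (0.44, adjusted p = 2.28e-08 by edgeR) and Sphk1 (-0.48, adjusted p = 4.64e-04), short of the size threshold. Between col1-ACLP+SB and col1-ACLP no gene of the partner or target lists was called. By adjusted p alone 2 EGR targets were lower there (0.905% of all genes), Thbs1 (-0.24, adjusted p = 0.0211 by edgeR) and Col1a2 (-0.21, adjusted p = 0.00842).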

How the data were processed

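The 10 members, the context lists and the tests were chosen with earlier results of these data known. Per the labels, libraries were made from poly(A)-enriched RNA. Per the study's methods, fragments were read from both ends, the authors aligned the reads with HISAT2 against GRCm39, and they deposited raw counts per gene. The submitters' processing notes name mm10, but gene positions in the table fit GRCm39. The strand setting and the counting tool are not given in the sources used here. The gene length deposited beside the counts was used for FPKM. Counts were fitted in R 4.3.3 with edgeR 4.0.16 (filterByExpr, TMM, glmQLFit, glmQLFTest, group as the only term, all 12 libraries), Benjamini-Hochberg adjusted over 16465 genes. The standard error is the log2 fold change divided by the square root of F. The common dispersion corresponds to a coefficient of variation of 15.3%. CPM are TMM-scaled, and log2 CPM use a prior count of 2. Named outside the members were called genes of each context list, at most 4 per list and comparison, and the 5 genes with the highest r with Fos and with Egr1; others named were chosen after their values were seen. Sequences are from RefSeq (GRCm38.p6). P-values of the edgeR fit with filterByExpr measure the spread between dishes of 1 line. The procedure was tested on simulated data, with its bar changed after a failed run. DESeq2 1.42.0 and limma 3.58.1 were alternatives. One listed AP-1 target is counted in its list but not reported by name here.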

Additional observations from a re-analysis of the deposited data

Results flagged for a closer look

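In 30 sets of 4 libraries (10 genes in 3 groups), 3 had a library far from the others by Dixon's test at its 95% level, and chance alone flags about 1 in 20 sets. Fosb was at 185.9 CPM in col1-ACLP+SB replicate 2, against at most 90.3 CPM in the others of that group. Fosl2 was at 307.8 CPM and Jund at 73.99 CPM in col1-ACLP replicate 4, against at most 272.5 and 64.8 CPM in the others of that group.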

How the results depend on the processing

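Of 630 log2 fold changes of the 10 genes under alternatives, 611 kept their direction and their side of the call, 3 lost a call, 4 gained one and 12 changed sign. On col1-ACLP against col1, members called lower numbered 4 (3 to 4 with each library left out in turn), 7 by adjusted p alone, with 1 higher, and 1 by glmTreat. On col1-ACLP+SB against col1 they numbered 1 (1 to 2 over libraries left out), 3 by adjusted p alone (1 without col1 replicate 2 or 4 or col1-ACLP+SB replicate 1 or 4 and with DESeq2, and 5 without col1-ACLP+SB replicate 2), with 1 higher, 0 by glmTreat and 2 by limma-voom. On col1-ACLP+SB against col1-ACLP, 0 to 1 were called higher over libraries left out. Leaving out the 2 libraries with the fewest genes detected, col1 replicate 2 and col1-ACLP+SB replicate 2, was chosen after seeing the data and left 4 lower on the ACLP matrix and 2 with the inhibitor added, each against col1. With a replicate block the counts were 4, 1 and 0; same-numbered libraries did not deviate together (r between -0.0372 and 0.036), and the numbers were not taken as pairs.

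Changes of sign were in uncalled values, over libraries left out in turn: Fosb on col1-ACLP against col1 (-0.032 to 0.24), Fos (-0.20 to 0.017) and Fosb (-0.10 to 0.42) on col1-ACLP+SB against col1, and Fosb (-0.17 to 0.28), Fosl1 (-0.011 to 0.65) and Fosl2 (-0.068 to 0.0061) on col1-ACLP+SB against col1-ACLP. In the last comparison Fosb (-0.17) and Fosl1 (-0.0096) also changed sign without both of those libraries. The causes were not tested. All 10 members held the same order of level with TPM-like scaling in each group. No setting of size factors or filter changed a member's call by adjusted p and size. With no filter, adjusted p alone passed 8 lower and 1 higher on col1-ACLP against col1 (Fos added, 0.00375), 4 and 2 on col1-ACLP+SB against col1 (Junb, 6.81e-04, and Fosb, 0.00239, added) and 0 and 2 on col1-ACLP+SB against col1-ACLP (Egr2 and Jun), and the cause was not tested. Fosl1, with 26 to 140 counts, is the member for which depth limits precision most.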
